A study of Sus scrofa with 3 samples.

Results

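The fetuins AHSG (fetuin-A, also called alpha-2-HS-glycoprotein) and FETUB (fetuin-B) were followed in liver RNA from 3 male pigs at postnatal day 90. Both genes were found by their Ensembl gene IDs, ENSSSCG00000011799 for AHSG and ENSSSCG00000011800 for FETUB, so that 2 of the 25322 gene IDs in each count table are described here. The libraries came from an Enshi black pig, a Chinese local breed, from a Large White pig, a European commercial breed, and from a Chinese wild boar, with 1 library per breed and no treatment named. The series is titled as a profile of the porcine liver transcriptome and its design text speaks of liver development, but all 3 libraries share 1 age. Breed, animal and library therefore cannot be told apart, no spread between animals could be estimated, and every comparison below is one between these libraries.

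Fetuins are plasma glycoproteins that hepatocytes make and secrete. Together with the histidine-rich glycoprotein HRG and the kininogen KNG1 they form the type 3 cystatins, a family built on repeated cystatin domains, the fold of cysteine protease inhibitors. AHSG binds calcium phosphate in blood and keeps it from precipitating in soft tissue, and it can inhibit the tyrosine kinase of the insulin receptor. FETUB inhibits astacin metalloproteinases such as ovastacin, the egg protease that hardens the zona pellucida. HRG binds heparin, haem and plasminogen, and KNG1 is the precursor of bradykinin and a cofactor of contact coagulation. In the RefSeq annotation of Sscrofa11.1 the 4 genes follow each other in the order AHSG, FETUB, HRG and KNG1, between DNAJB11 on one side and EIF4A2 on the other. The count tables were made on another build, Sscrofa10.2, so the annotation served for gene order only.

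Library totals were alike, with 20654571 gene counts in the Enshi black liver, 19982627 in that of Large White and 20215871 in that of Chinese wild boar. Values of 3 libraries given without names below follow this order. Levels are given as CPM, counts per 1000000 gene counts of the library, after scaling the library totals with TMM factors, and both fetuins were far above the counting limit in every library. Of 25322 gene IDs, 13228 were expressed, which here means 1 CPM or more in any library. Ranges in parentheses are 95% exact intervals, which cover counting error alone. For a gene to pass the size rule in a comparison, the whole interval of its fold had to lie at 2 or above, or at 0.5 or below. ALB, the albumin gene and the defining hepatocyte transcript, had 25310 to 66508 CPM, and 6 of the 7 matched hepatocyte markers were expressed. The seventh, APOA1, had 0 to 2 counts per library, although it encodes a major liver apolipoprotein, and whether its gene ID covers the transcribed locus was not tested.

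AHSG was abundant in all 3 livers, and its level was lowest in Large White. It had 13744 CPM in the Enshi black liver (13694 to 13793), 9099 CPM in that of Large White (9057 to 9142) and 15141 CPM in that of Chinese wild boar (15087 to 15195), from 296612, 177798 and 299582 counts. This made up 1.44% of all gene counts in the Enshi black liver, 0.890% in that of Large White and 1.48% in that of Chinese wild boar. The 2 libraries of Chinese origin thus lay close together and Large White lay apart below them. The Enshi black level was 1.51-fold that of Large White (1.502 to 1.519), and the Chinese wild boar level was 1.66-fold that of Large White (1.65 to 1.67). Between Enshi black and Chinese wild boar the ratio was 0.908 (0.903 to 0.912). None of these 3 ratios passed the size rule. Of the expressed genes, 4.69% passed as higher and 8.39% as lower in Enshi black against Large White, 2.96% and 3.74% when Chinese wild boar was set against Large White, with 4.03% and 7.1% when Enshi black was set against Chinese wild boar. The share of expressed genes with a log2 fold farther from 0 than that of AHSG was 43.7%, 24.0% and 83.5% in these comparisons. Scaling by total counts gave 0.969 for the last ratio, and leaving the 10 most abundant gene IDs out of the totals gave 0.988, so the size of this small difference depends on the scaling.

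FETUB had the same order of libraries as AHSG but spread more widely. Its level was 361 CPM in the Enshi black liver (353 to 369), 205 CPM in that of Large White (199 to 211) and 514 CPM in that of Chinese wild boar (504 to 524), from 7794, 4005 and 10164 counts. Large White was again lowest, and here Chinese wild boar stood clearly above Enshi black. The Chinese wild boar level was 2.51-fold that of Large White (2.42 to 2.60), which passed the size rule. In that comparison 2.96% of the expressed genes passed as higher, and 7.70% had a log2 fold farther from 0 than FETUB. The Enshi black level was 1.76-fold that of Large White (1.70 to 1.83) and 0.703 times that of Chinese wild boar (0.683 to 0.724), and neither ratio passed. If a coefficient of variation of 0.4 between animals is assumed on top of the counting error, the interval of the 2.51-fold difference widens to 0.861 to 7.30 and FETUB no longer passes. In bulk RNA, fewer hepatocytes and less fetuin RNA per hepatocyte cannot be told apart.

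**Figure D1:**
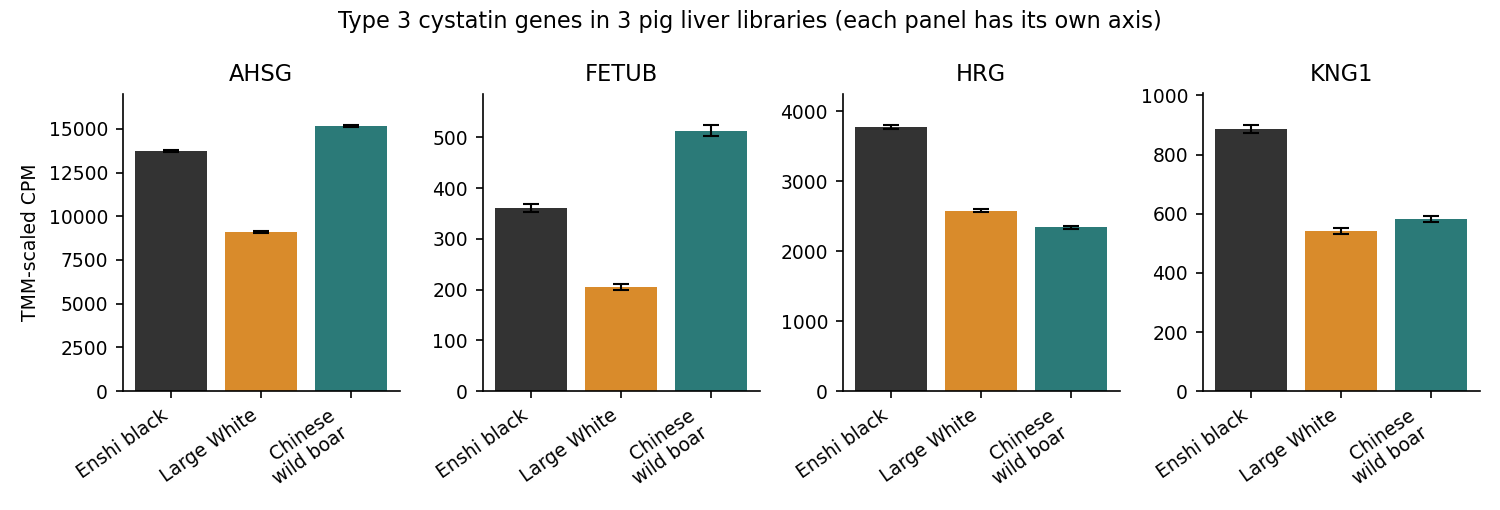
TMM-scaled CPM (vertical axis, from 0, a separate scale for each gene) of AHSG, FETUB, HRG and KNG1 in the Enshi black, Large White and Chinese wild boar libraries, 1 bar per library with the 95% exact Poisson interval of its count. AHSG and FETUB are lowest in Large White (9099 and 205 CPM) and highest in Chinese wild boar (15141 and 514 CPM), while HRG and KNG1 are highest in Enshi black (3770 and 886 CPM).

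The other type 3 cystatins, which lie beside the fetuins in the genome, did not share this order. HRG had 3770 CPM in the Enshi black liver, 2576 CPM in that of Large White and 2343 CPM in that of Chinese wild boar. KNG1 had 886 CPM in the Enshi black liver, 541 CPM in that of Large White and 583 CPM in that of Chinese wild boar. Enshi black was highest for both, and the libraries that were farthest apart for the fetuins, Large White and Chinese wild boar, were close together. HRG in Chinese wild boar was 0.909 times its Large White level (0.898 to 0.921), and KNG1 was 1.08-fold its Large White level (1.05 to 1.11).

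Seen by comparison, all 4 type 3 cystatins were above Large White in Enshi black, by a narrow range of ratios: 1.51 for AHSG, 1.76 for FETUB, 1.46 for HRG and 1.64 for KNG1. Their median log2 fold was 0.65, against 0.01 for all expressed genes, and none of the 4 passed. In Chinese wild boar against Large White the family divided, with ratios of 1.66 and 2.51 for AHSG and FETUB but 0.909 and 1.08 for HRG and KNG1, and 1 of 4 members passed. These comparisons share the Large White library. In Enshi black against Chinese wild boar the fetuins had ratios below 1 (0.908 and 0.703) and their relatives ratios above 1, with HRG at 1.61 (1.59 to 1.63) and KNG1 at 1.52 (1.49 to 1.56). None of the 4 passed there either. The direction of each of these 12 ratios was the same under all 4 scalings tried.

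**Figure D2:**
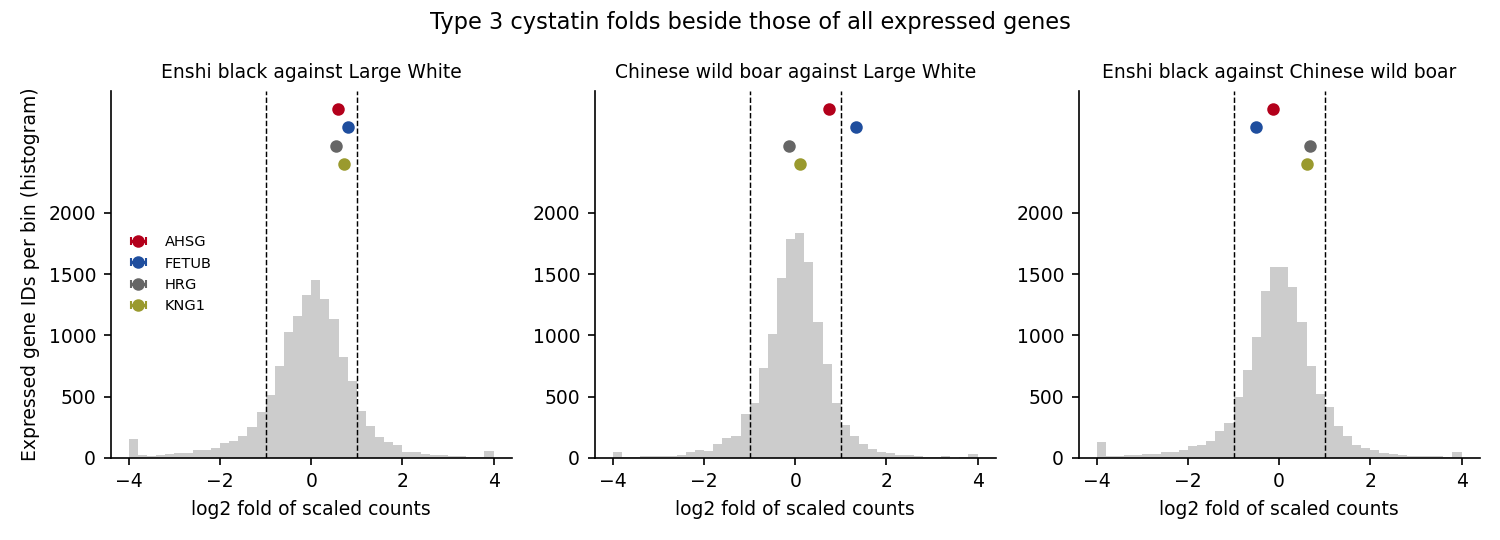
Log2 folds (horizontal axis) of AHSG, FETUB, HRG and KNG1 as coloured points in 3 comparisons of libraries, above a histogram of the expressed gene IDs (vertical axis, IDs per bin), without IDs that had no count in one of the libraries compared and with folds beyond the axis in the end bins. Dashed lines mark 2-fold differences, counting intervals are narrower than most points, and only FETUB in Chinese wild boar against Large White lies beyond a line, at a log2 fold of 1.33.

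Ratios of counts within a library need no scaling between libraries. Compared between libraries, they equal quotients of the folds, so they restate the division above and do not test it again. For every 100 counts of AHSG there were 2.63 counts of FETUB in the Enshi black liver (2.57 to 2.69), 2.25 in that of Large White (2.18 to 2.32) and 3.39 in that of Chinese wild boar (3.33 to 3.46). The number of FETUB counts per AHSG count was thus 1.51-fold higher in Chinese wild boar than in Large White (1.45 to 1.56), 1.17-fold higher in Enshi black relative to Large White (1.122 to 1.213) and 0.775 times as high in Enshi black as in Chinese wild boar (0.752 to 0.798). These differences exceed counting error, and none passed the size rule. Such ratios are comparable between libraries only. The level of AHSG is not set against that of FETUB here, because transcript lengths of the build were not used.

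The ratio of HRG to AHSG put Chinese wild boar apart from the other libraries. It was 27.4 counts of HRG per 100 of AHSG in the Enshi black liver (27.2 to 27.6), 28.3 in that of Large White (28.0 to 28.6) and 15.5 in that of Chinese wild boar (15.3 to 15.6). For KNG1 the counts per 100 of AHSG were 6.45, 5.94 and 3.85 in the same order of libraries. Enshi black and Large White therefore differed by a factor of 0.969 for HRG per AHSG (0.957 to 0.981) and of 1.09 for KNG1 per AHSG (1.06 to 1.11), while both ratios were lowest in Chinese wild boar. FETUB per HRG was 2.76-fold higher in Chinese wild boar than in Large White (2.65 to 2.87), and FETUB per KNG1 was 2.32-fold higher (2.22 to 2.43). KNG1 per HRG stayed within a narrower range, at 23.5, 21.0 and 24.9 counts of KNG1 per 100 of HRG. These ratios to HRG, KNG1 and ALB were added after the levels had been seen.

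Against albumin the order of the libraries changed. ALB itself had 66508 CPM in the Enshi black liver, 25310 in that of Large White and 53648 in that of Chinese wild boar, a wider spread than that of AHSG. Per 100 counts of ALB there were 20.7 counts of AHSG in the Enshi black liver, 36.0 in that of Large White and 28.2 in that of Chinese wild boar. Large White, lowest in AHSG as a share of all gene counts, was thus highest in AHSG per ALB, and Enshi black was lowest at 0.575 times the Large White ratio (0.571 to 0.579). FETUB per 100 counts of ALB was 0.543 in the Enshi black liver, 0.810 in that of Large White and 0.958 in that of Chinese wild boar, so that Chinese wild boar was highest for FETUB on either basis.

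**Figure D3:**
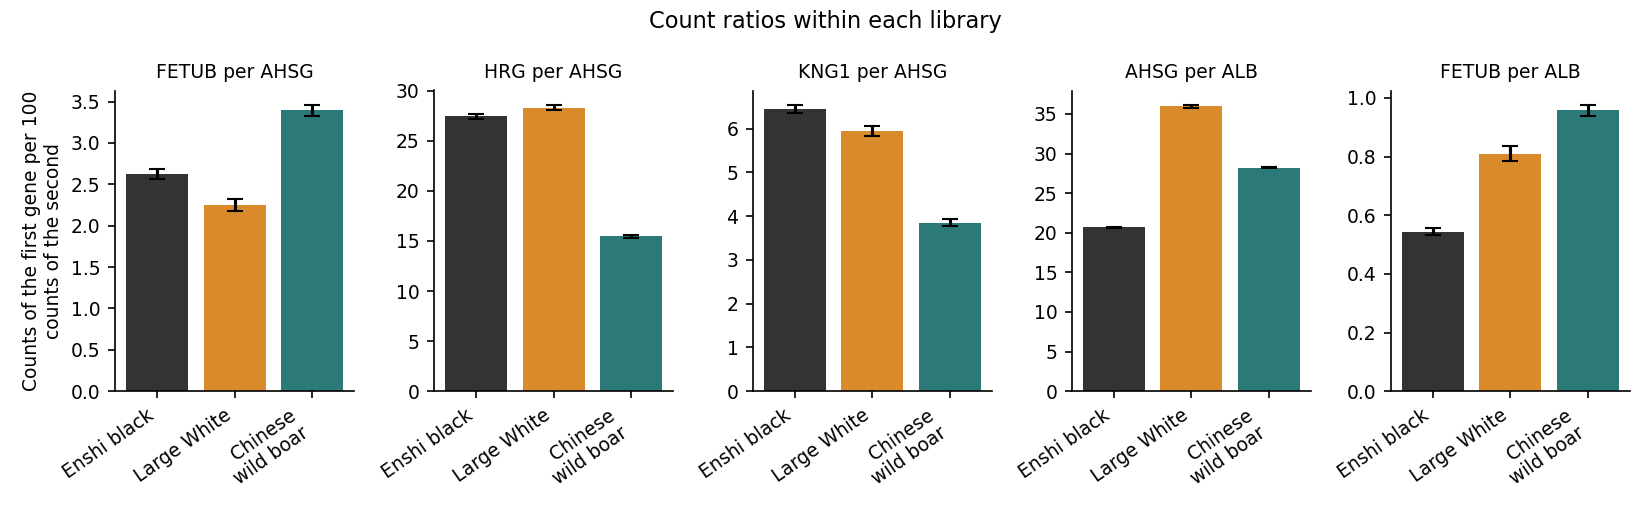
Counts of one gene per 100 counts of another within each library (vertical axes, from 0, separate scales), with 95% exact binomial intervals, for FETUB, HRG and KNG1 per AHSG and for AHSG and FETUB per ALB. FETUB per AHSG is highest in Chinese wild boar (3.39), HRG and KNG1 per AHSG are lowest there (15.5 and 3.85), and AHSG per ALB is highest in Large White (36.0).

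Genes on either side of the cluster were read off as neighbours after their values had been seen. DNAJB11, a chaperone of the endoplasmic reticulum, had 79.0 CPM in the Enshi black liver, 99.7 in that of Large White and 91.8 in that of Chinese wild boar, highest in Large White where AHSG was lowest. EIF4A2, a translation initiation helicase, had 271, 210 and 220 CPM in the same order, highest in Enshi black like HRG and KNG1 and lowest in Large White like the fetuins. RFC4, a subunit of the DNA clamp loader, had 9.27, 6.24 and 9.20 CPM, and MASP1, a protease of the lectin complement pathway, had 73.3, 51.7 and 64.5 CPM, both also lowest in Large White. TBCCD1, with 5.24, 6.29 and 4.75 CPM, and ST6GAL1, with 708, 831 and 773 CPM, were highest there. EIF4A2, RFC4 and MASP1 ranked from Large White to Chinese wild boar to Enshi black, the order of 20.7% of all expressed genes. The fetuin order was found in 13.2%. None of the 6 flanking genes with counts, from TBCCD1 and DNAJB11 to EIF4A2, RFC4, ST6GAL1 and MASP1, passed the size rule in any comparison.

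Gene lists were set beside the fetuins, and the calls in them rest on counting error alone. Shares of all expressed genes that passed give the background for each list count. They were 4.69% higher and 8.39% lower in Enshi black against Large White, and 2.96% and 3.74% in Chinese wild boar against Large White. In Enshi black against Chinese wild boar they were 4.03% and 7.1%. Over 12 lists and 3 comparisons there were 37 calls. With the assumed variation of 0.4 between animals 5 of them were left, TLL2, PIK3R1, BMP6 and CRP in Enshi black against Large White and PIK3R1 in Enshi black against Chinese wild boar.

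AHSG counts as a negative acute phase protein, one whose plasma level drops in inflammation. Of 6 other expressed genes of negative acute phase proteins, 1 passed as higher in Enshi black relative to Large White and 1 in Chinese wild boar than in Large White, ALB in both cases, and none passed between Enshi black and Chinese wild boar. The median log2 folds of this list were 0.42, 0.10 and 0.27 in these comparisons, against 0.01, 0.00 and 0.01 for all expressed genes. RBP4, the retinol carrier, had 3439 CPM in the Enshi black liver, 2774 in that of Large White and 4129 in that of Chinese wild boar, the order seen for the fetuins. TTR, the thyroxine and retinol-binding protein carrier transthyretin, had 2543, 4107 and 3497 CPM, with Large White highest.

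Of 18 listed genes of positive acute phase proteins, 10 had a matched gene ID. Those without one were SAA1, SAA2, SAA3, HP, ORM1, FGA, HAMP and SERPINA3. Among the 10 expressed genes, 1 passed as higher and 3 as lower in Enshi black relative to Large White, with a median log2 fold of -0.03. CRP, the C-reactive protein, had 417 CPM in the Enshi black liver, 2632 in that of Large White and 1196 in that of Chinese wild boar, and it passed as lower in both libraries than in Large White. ITIH4, a major acute phase protein of pigs, had 2054, 6436 and 3537 CPM and passed in Enshi black only, where the fibrinogen chain FGB, with 605, 2740 and 2346 CPM, also passed. LCN2, the iron-siderophore binder lipocalin 2, was the member that passed as higher in Enshi black, with 12.1 CPM where Large White had 2.15 and Chinese wild boar 3.39. In Chinese wild boar against Large White 2 members passed as lower, CRP and complement C3, and the median was -0.41. C3 had 17267, 16809 and 6329 CPM, so the member with the largest counts was not highest in the library with the most CRP. Between Enshi black and Chinese wild boar, 2 members passed as higher and 2 as lower, with a median of 0.01.

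Of 13 other expressed plasma protein genes of hepatocytes, 1 passed as higher and 2 as lower in Enshi black relative to Large White, none passed in Chinese wild boar against Large White, and 2 passed as higher and 1 as lower in Enshi black than in Chinese wild boar. The medians were 0.09, -0.12 and 0.13. APOB, the structural protein of very low density lipoprotein, had 883, 304 and 302 CPM in Enshi black, Large White and Chinese wild boar, highest in Enshi black like HRG and KNG1. APOE, a ligand of lipoprotein receptors, had 14670, 39379 and 24810 CPM, with Large White highest. Over these 3 lists, 2 of 29 genes shared the rank order of the fetuins from Large White to Enshi black to Chinese wild boar, namely RBP4 and the fibrinogen chain FGG. Over all expressed genes the same order was found in 13.2%. The most frequent order among the 29 was that of HRG, from Chinese wild boar to Large White to Enshi black, with 9 genes including TF, C3, FN1 and PLG, against 16.7% of all expressed genes.

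**Figure D4:**
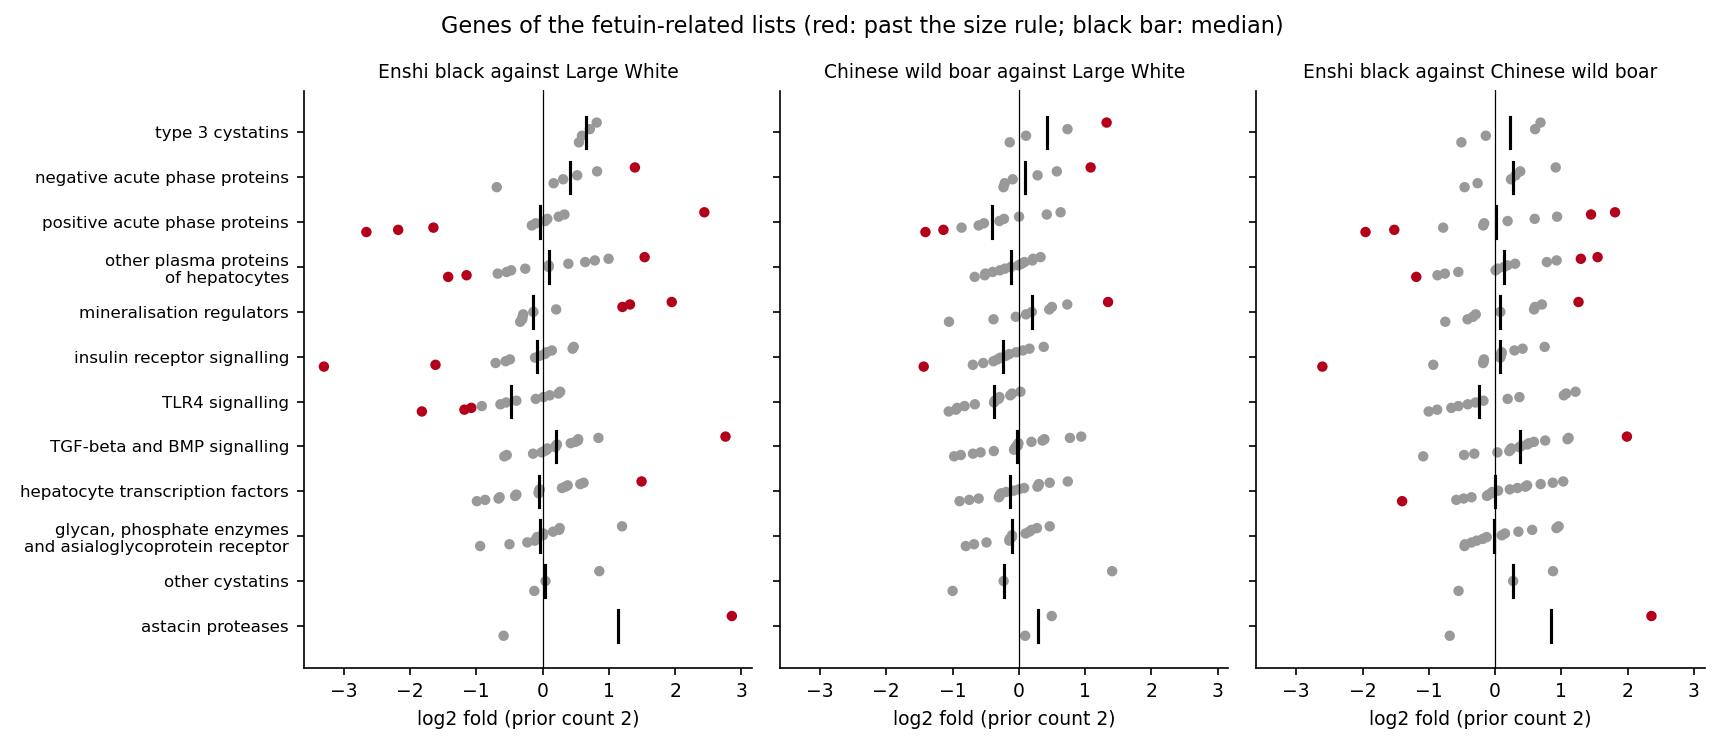
Log2 folds (horizontal axis, prior count 2) of every expressed gene of 12 lists (rows) in the 3 comparisons of libraries, 1 point per gene, red where it passed the size rule, with a black bar at the list median. The type 3 cystatins sit between 0.55 and 0.82 in Enshi black against Large White and spread from -0.14 to 1.33 in Chinese wild boar against Large White.

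No gene tested for modifying or clearing fetuins passed the size rule. AHSG carries sialylated N- and O-glycans and phosphoserines, and desialylated fetuin is a classical ligand of the asialoglycoprotein receptor. Of 18 listed genes of glycan and phosphate enzymes and this receptor, 12 had a matched gene ID. ST3GAL3, ST3GAL6, B4GALT1, MGAT2, C1GALT1 and C1GALT1C1 did not and are not analysed here. Of the 12, all expressed, none passed in any comparison, with medians of -0.04, -0.10 and -0.01. The receptor subunit ASGR1 had 551 CPM in the Enshi black liver, 549 in that of Large White and 758 in that of Chinese wild boar, and ASGR2 had 412, 583 and 527. FAM20C, the kinase of the secretory pathway, had 59.1, 62.5 and 67.2 CPM, and did not pass.

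Of the proteases known as targets of FETUB, ASTL and MEP1B had a matched gene ID and were at or near 0 counts, while MEP1A was not matched and is not analysed here. ASTL, the ovastacin gene, had 1 count in Enshi black and 0 in the other libraries, and the meprin gene MEP1B had 0 counts in all 3. With 3 counts taken as its limit, MEP1B could reach 0.139, 0.154 and 0.152 CPM in Enshi black, Large White and Chinese wild boar. BMP1, a procollagen C-proteinase, had 62.7, 94.3 and 101 CPM and did not pass. TLL2, a related tolloid-like protease, had 54 counts in Enshi black where Large White had 5 and Chinese wild boar had 8, and passed as higher against both, at 9.78-fold (3.94 to 31.3) and 6.19-fold (2.93 to 15.1).

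Of 9 expressed regulators of mineralisation, the process AHSG restrains, 3 passed as higher in Enshi black relative to Large White, 1 in Chinese wild boar than in Large White and 1 in Enshi black than in Chinese wild boar, and none passed as lower. Over all expressed genes, 4.69%, 2.96% and 4.03% passed as higher in these comparisons. The list medians were -0.14, 0.20 and 0.08. ENPP1, which makes the mineralisation inhibitor pyrophosphate, was lowest in Large White like the fetuins, with 46.0 CPM in the Enshi black liver, 11.8 in that of Large White and 30.2 in that of Chinese wild boar. It was 3.89-fold higher in Enshi black (3.37 to 4.51) and 2.56-fold higher in Chinese wild boar (2.19 to 2.99) than in Large White. The order of ENPP1, from Large White to Chinese wild boar to Enshi black, was found in 20.7% of all expressed genes. The fetuin order was found in 13.2%. NT5E, the ecto-nucleotidase CD73, had 326, 117 and 198 counts, and PROS1, the anticoagulant protein S, had 121, 52.6 and 74.4 CPM, both passing in Enshi black against Large White. SPP1, the matrix phosphoprotein osteopontin, passed between Enshi black and Chinese wild boar, with 468 and 178 counts. SPP2, another secreted protein with a cystatin-like domain, had 0, 1 and 0 counts, and whether its gene ID in this build covers the transcribed locus was not tested.

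In insulin receptor signalling, 2 of 12 expressed genes passed as lower in Enshi black relative to Large White, 1 as lower in Chinese wild boar than in Large White and 1 as lower in Enshi black than in Chinese wild boar, and none as higher. Over all expressed genes, 8.39%, 3.74% and 7.1% passed as lower in these comparisons. The list medians were -0.08, -0.24 and 0.08. IRS1, the docking protein of the receptor, was highest in Large White, the library lowest in both fetuins, with 23.6 CPM in the Enshi black liver, 72.6 in that of Large White and 26.8 in that of Chinese wild boar. Its level was 0.325 times that of Large White in Enshi black (0.294 to 0.360) and 0.369 times in Chinese wild boar (0.333 to 0.408). The receptor INSR itself had 16.3, 11.9 and 13.3 CPM and did not pass. PIK3R1, a regulatory subunit of phosphoinositide 3-kinase, had 10 counts in the Enshi black liver, 105 in that of Large White and 65 in that of Chinese wild boar.

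AHSG has also been described as an adaptor for fatty acids at TLR4 and as a binder of TGF-beta and BMP ligands. Of 12 expressed TLR4 signalling genes, 3 passed as lower in Enshi black relative to Large White, NFKB1, MYD88 and NFKBIA, and none passed in the other comparisons. In Enshi black against Large White, 8.39% of all expressed genes passed as lower. The list medians were -0.47, -0.37 and -0.24, and with total counts 1 of the 3 list genes named still passed. TLR4 had 6.86 CPM in the Enshi black liver, 6.35 in that of Large White and 3.29 in that of Chinese wild boar. Of 16 expressed TGF-beta and BMP signalling genes, BMP6, an inducer of hepcidin, was the 1 that passed, as higher in Enshi black than in either other library, with 150 CPM against 22.1 and 37.8. With total counts 3 genes of this list passed in Enshi black against Chinese wild boar.

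Of 16 expressed transcription factor genes of hepatocytes, ESR1, the oestrogen receptor, passed as higher in Enshi black relative to Large White, with 20.5 against 7.22 CPM. None passed in Chinese wild boar against Large White. Of the 20 listed factors 16 had a matched gene ID, and a link between their levels and the fetuins was not tested. HNF4A, a central activator of hepatocyte genes, had 746, 588 and 723 CPM in Enshi black, Large White and Chinese wild boar. It was lowest in Large White like the fetuins but highest in Enshi black. That order was found in 20.7% of all expressed genes, and the fetuin order in 13.2%. NR1H4, the bile acid receptor FXR, had 51.3, 53.2 and 65.7 CPM. Of 3 expressed genes of other cystatins, including CSTB, an inhibitor of lysosomal cathepsins, with 63.5, 61.6 and 52.5 CPM, none passed in any comparison.

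The genes with the most similar pattern over the 3 libraries were sought among 987 other genes with a symbol and a mean of at least 100 CPM, by the root mean square difference of log2 CPM after centring each gene on its mean. For AHSG the 5 nearest were RPS3, a protein of the small ribosomal subunit, PDK2, a kinase that restrains pyruvate dehydrogenase, COQ8A, needed for coenzyme Q synthesis, the epoxide hydrolase EPHX1 and the prostaglandin reductase PTGR2, at differences of 0.01 to 0.04. For FETUB they were LECT2, a protein secreted by hepatocytes, INSIG1, a brake on sterol regulatory factors, the acyl-CoA dehydrogenase ACAD11, the ubiquilin UBQLN1 and the peroxiredoxin PRDX1, at 0.05 to 0.08. LECT2 had 413 CPM in the Enshi black liver, 224 in that of Large White and 607 in that of Chinese wild boar. AHSG ranked 47 for likeness to FETUB, at a difference of 0.24, while KNG1 ranked 437 and HRG 610. In the other direction FETUB ranked 210 for likeness to AHSG, with KNG1 at 362 and HRG at 517. With a minimum of 20 CPM, 1 of the 5 genes nearest to AHSG and 3 of the 5 nearest to FETUB were again among the first 5. With that minimum, AHSG ranked 122 for likeness to FETUB and FETUB 774 for likeness to AHSG, of 3979 genes. A pattern over 3 libraries has few degrees of freedom, and RPS3 belongs to a gene family with many copies, so its count is uncertain.

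**Figure D5:**
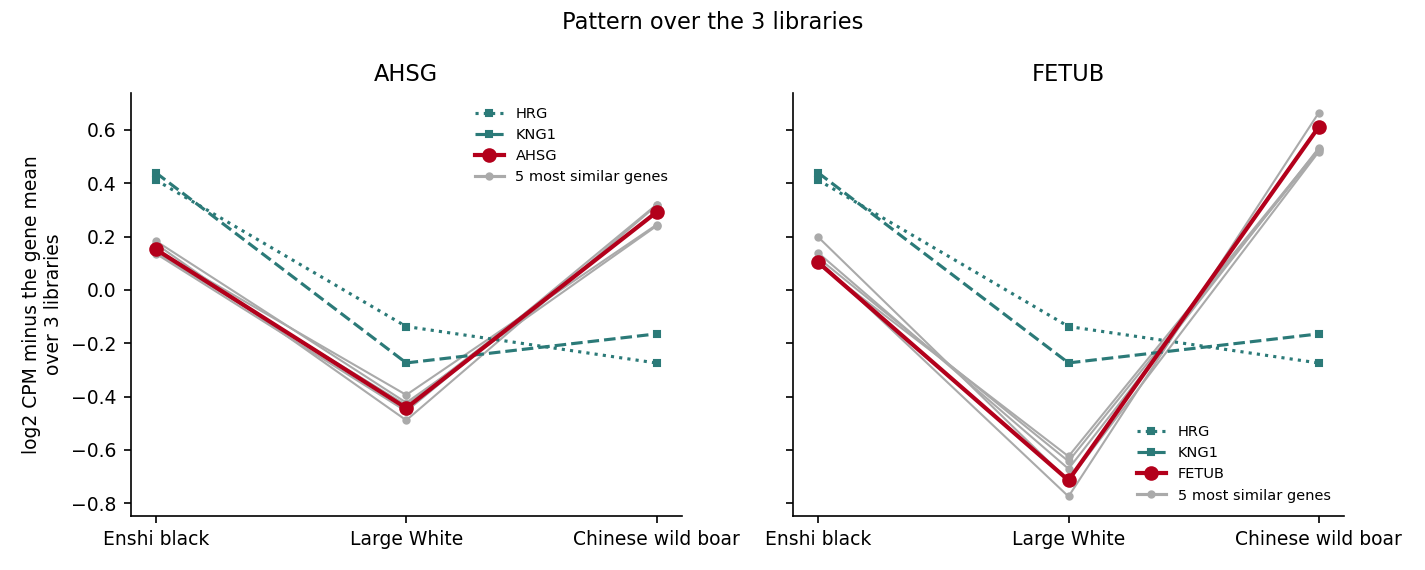
Log2 CPM minus each gene's mean over the 3 libraries (vertical axis) in Enshi black, Large White and Chinese wild boar (horizontal axis; lines only join the values of 1 gene), for AHSG and FETUB in red, their 5 most similar genes in grey, and HRG and KNG1 in green. From left to right AHSG goes from 0.15 to -0.44 and 0.29, FETUB from 0.10 to -0.71 and 0.61, whereas HRG and KNG1 are highest in Enshi black, at 0.41 and 0.44.

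Markers of cell types moved between the libraries beside the fetuins. The 7 matched of 8 hepatocyte markers summed to 74477 CPM in the Enshi black liver, 34312 in that of Large White and 61435 in that of Chinese wild boar. Without ALB the other 6 summed to 7969, 9002 and 7787 CPM, with Large White highest. The 7 matched of 9 stellate cell and fibroblast markers summed to 1066, 334 and 558 CPM, lowest in Large White, where LUM had 0 counts. The collagen gene COL3A1 held most of this sum, at 837, 232 and 383 CPM. Of 6 expressed markers, 4 passed as higher in Enshi black against Large White, with a median log2 fold of 1.82. In Chinese wild boar against Large White 2 passed as higher, with a median of 0.63, and none passed as lower in either comparison. The 5 matched of 10 Kupffer cell and macrophage markers summed to 640, 787 and 675 CPM, and 3 of the 5 passed as lower in Enshi black against Large White, with a list median log2 fold of -1.99. These were the growth factor receptor CSF1R at 15.6, 111 and 55.7 CPM, the scavenger receptor MARCO at 21.4, 85.1 and 28.9 CPM, and the lysozyme gene LYZ at 1.16, 7.73 and 3.29 CPM. The complement gene C1QA, which held most of the sum, had 548, 522 and 517 CPM. The 4 of 8 endothelial markers summed to 501, 740 and 386 CPM, a sum led by the scavenger receptor STAB1 at 186, 499 and 168 CPM. The other endothelial markers, PECAM1, LYVE1 and KDR, were higher in Enshi black against Large White without passing, and the list median was 0.23. The 4 of 7 T and NK cell markers summed to 82.5, 89.9 and 40.9 CPM, and the 2 of 4 neutrophil markers to 6.30, 34.5 and 5.26 CPM, nearly all from CSF3R. Among the T and NK cell markers, 2 of 4 passed as lower in Chinese wild boar against Large White. In Enshi black against Chinese wild boar, 2 passed as higher. CSF3R passed as lower in Enshi black and in Chinese wild boar against Large White. The 3 matched of 5 cholangiocyte markers summed to 7.46 to 7.99 CPM, the 4 of 6 B and plasma cell markers to 11.2 to 15.2 CPM, and the 2 of 3 erythroid markers to 44.3, 105 and 186 CPM. These B cell and erythroid sums join members that differ in direction. Of the 4 B and plasma cell markers, 3 passed as higher and 1 as lower in Enshi black against each other library. CD79B had 5.33, 0.972 and 0.859 CPM, while POU2AF1, the lower one, had 1.85, 8.80 and 13.5 CPM. HBB had 36.5, 102 and 182 CPM, and ALAS2 7.74, 2.92 and 3.44 CPM. The part of these shifts in the fetuin differences was not tested.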

How the data were processed

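Total RNA of 3 pig livers was sequenced as paired-end reads, per the labels' protocols. The deposited files hold raw read counts per Ensembl gene ID, not normalized, 1 table per library. The tools, per the submitters' processing notes, include edgeR 3.16.3, HTSeq 0.6.1 and TopHat2 2.1.0, with Sscrofa10.2 as the build. How strand and reads with several alignments were treated is not given in the sources used here, so genes with near-identical copies or overlapping neighbours are uncertain. The 5 rows that name no gene were left out. Reads with no feature were 18.9% to 22.0% and ambiguous reads 1.89% to 2.49% of the reads in the tables.

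Library totals were scaled with TMM factors (edgeR 4.0.16, R 4.3.3) of 1.04, 0.978 and 0.979 for Enshi black, Large White and Chinese wild boar. One count was worth 0.0463, 0.0512 and 0.0505 CPM. Folds have 95% Clopper-Pearson intervals from the conditional binomial, shares per gene pair exact binomial intervals, and ratios of such ratios exact conditional intervals (Python 3.11.15, numpy 2.4.6, pandas 2.3.3, scipy 1.17.1; figures with matplotlib 3.10.9). All cover counting error only, and no molecular identifiers are described. Since each breed has a single library, no comparison has a p-value. The rule on fold size was checked on simulated Poisson counts without variation between animals. That check therefore covers counting error only and cannot show how the rule performs across animals. List medians use a prior count of 2. Symbols were matched for 11804 gene IDs.

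The members and the gene lists were chosen with earlier results of these data known. The genes named are the 4 type 3 cystatins, ALB, up to 2 passing genes per list, direction and comparison, and 5 similar genes per fetuin. NT5E, NFKBIA, ITIH4, the flanking genes and list members that did not pass were named after their values were seen. One result of the transcription factor list is not reported here. The alternatives were DESeq2 1.42.0 size factors, total counts, totals without the 10 most abundant gene IDs, no expression filter or one of 10 CPM, near bounds of 1.5 and 4, and a coefficient of variation of 0.4 assumed for animals of a breed.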

Additional observations from a re-analysis of the deposited data

How the results depend on the processing

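No fold of the 4 type 3 cystatins changed direction in 36 values under other scalings. AHSG moved beyond its counting interval to 1.61 with total counts and 1.59 without the 10 most abundant gene IDs in Enshi black against Large White, to 1.61 without those IDs in Chinese wild boar against Large White, and to 0.903 with DESeq2 size factors, 0.969 with total counts and 0.988 without those IDs in Enshi black against Chinese wild boar. FETUB moved to 1.88 and 1.86 in Enshi black against Large White and to 0.751 and 0.765 in Enshi black against Chinese wild boar with total counts and without those IDs. Total counts also moved the median log2 fold over the expressed genes to 0.10 in both comparisons of Enshi black. With a near bound of 1.5, AHSG passed at 1.51 and 1.66 and FETUB at 1.76 against Large White in Enshi black or Chinese wild boar. KNG1 also passed at that bound in Enshi black against Large White, at 1.64, and HRG in Enshi black against Chinese wild boar, at 1.61. The pass of AHSG in Enshi black against Large White was marginal. Its lower limit was 1.502, and 1.499 with DESeq2 size factors. FETUB at 2.51 in Chinese wild boar against Large White was lost with a near bound of 4 and with the assumed variation of 0.4 between animals. For Enshi black against Large White, Chinese wild boar against Large White, and Enshi black against Chinese wild boar, the genes passing were 1731, 886 and 1472. The main split of 621 higher and 1110 lower genes in Enshi black against Large White became 772 and 978 with total counts and 734 and 999 without the 10 most abundant gene IDs. In Enshi black against Chinese wild boar 533 and 939 became 646 and 850, and 681 and 822. The totals became 557, 184 and 491 with the assumed variation, 3503, 2120 and 2976 with a bound of 1.5, 594, 201 and 507 with a bound of 4, and 990, 546 and 820 with a minimum of 10 CPM. Levels per kilobase were not run, since no transcript lengths of the build were used. No paired analysis was possible because each breed has 1 library. Depth does not limit the fetuin values, since the smallest count was 4005, and the absence of other animals does.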
